A study of Mus musculus with 4 samples.

Results

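Hif1a and 9 genes of glucose uptake and glycolysis were examined in CD11b+ microglia (the macrophages that reside in brain) of 10-month-old mice. The 10 genes were Hif1a, Slc2a1, Hk1, Hk2, Pfkl, Pfkfb3, Pkm, Ldha, Pgk1 and Eno1. They were taken by gene symbol, and all 10 were found among the 49993 genes with a count. The study compared APP/PS1+ asrij+/+ mice (AD, 2 libraries) with APP/PS1+ asrij-/- mice (AD/KO, 2 libraries). All mice carried the APP/PS1 transgenes, a model of amyloid build-up in Alzheimer's disease, and there was no group without them. The asrij gene, listed in mouse annotation as Ociad1, was deleted constitutively and not in microglia alone, so that the deletion was present in every cell of the AD/KO mice. Cells were isolated with CD11b beads by magnetic-activated sorting and their RNA was measured by bulk RNA-seq after ribosomal RNA depletion. Whether a library came from 1 mouse or from several, and whether the 2 libraries of a group came from separate mice, was not stated, so that the tests measure only the spread between these libraries.

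Glycolysis breaks glucose down to pyruvate in the cytosol and gives ATP quickly, without oxygen. Hif1a is the oxygen-regulated subunit of the transcription factor HIF-1. In normal oxygen, prolyl hydroxylases mark it for destruction through the VHL ubiquitin ligase, and when it is stable it pairs with Arnt and binds DNA at hypoxia response elements, many of which lie beside glycolysis genes. Microglia and other macrophages are known to shift towards glycolysis during inflammatory activation, with Hif1a as 1 of the regulators. Much of this control acts on the protein, which RNA counts do not measure.

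The libraries held from 13102622 to 19810076 reads. The targeted gene Ociad1 had 691 and 1032 reads in AD and 746 and 592 reads in AD/KO. Set relative to library size, its AD/KO level was 62.5% of the AD level, with both AD/KO libraries below both AD libraries (21.7% of all genes). The log2 fold change was −0.68 (SE 0.29, adjusted p = 0.680, edgeR with Benjamini-Hochberg adjustment). Its transcript was thus lower but still counted in the libraries labelled AD/KO. The names AD and AD/KO therefore refer to what each library is labelled. Markers of other brain cells differed between libraries. Listing the AD libraries first and replicate 1 before replicate 2, 10 microglia markers summed to 17779, 11938, 17610 and 5285 CPM (read counts set relative to library size, with sizes adjusted by edgeR's TMM method). The 22 neuron and astrocyte markers summed to 2304, 5787, 5619 and 15044 CPM in the same order. AD/KO replicate 2 thus held the least microglial and the most neuronal and astrocytic RNA. Markers of neutrophils summed to 4737 CPM in AD replicate 2 and to between 381 and 576 CPM in the other libraries. Oligodendrocyte lineage markers ranged from 1670 CPM in AD replicate 1 to 8695 CPM in AD/KO replicate 2, endothelial markers from 54.2 to 88.0 CPM and red blood cell markers from 436 to 1991 CPM. No gene on these lists of other cells was at 0 in every library. Markers of disease-associated microglia, which microglia are known to raise around amyloid plaques, were lower in AD/KO for all 12 genes, with a median log2 fold change of −2.82. Of these, 10 did not overlap between groups and 9 had an unadjusted p under 0.05 by edgeR, where 42% and 5% of all genes did, and 0 passed the adjusted threshold. Their sums were 2170 and 2419 CPM in AD and 1463 and 1922 CPM in AD/KO.

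**Figure D1:**
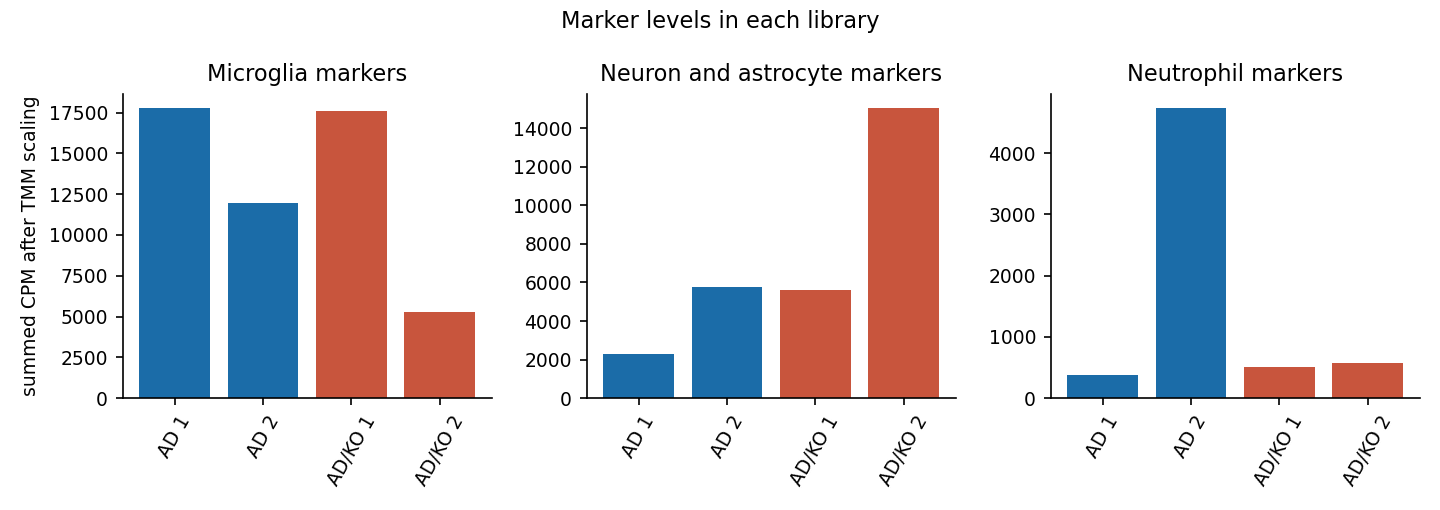
Summed level of cell type markers in each library, in CPM after TMM scaling, for 10 microglia markers, 22 neuron and astrocyte markers and 10 neutrophil markers. Each bar is 1 library, AD in blue and AD/KO in red; AD/KO replicate 2 has the lowest microglial level (5285 CPM) and the highest neuronal and astrocytic level (15044 CPM), and AD replicate 2 the highest neutrophil level (4737 CPM).

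Hif1a stood in AD/KO at 51.7% of its AD level, without overlap of the groups, while the other 9 genes showed smaller differences or wide spread within a group. None of the 10 genes passed an adjusted p of 0.05 (edgeR quasi-likelihood test, Benjamini-Hochberg adjustment), where 0% of all 21439 genes tested passed. By DESeq2, 0 of the 10 passed as well, where 0.462% of all genes with an adjusted p did. At an unadjusted p under 0.05 by edgeR, 1 of the 10 (Hif1a) was reached, where 5% of all genes tested were and 2.3% were lower. The 2 groups did not overlap in 6 of the 10, where 42% of all genes did not. Of these 6, Hif1a, Pfkfb3 and Ldha were lower in AD/KO (21.7% of all genes) and Slc2a1, Pfkl and Eno1 were higher (20.3% of all genes). The log2 fold changes ran from −0.95 to 0.74 with a median of 0.16 for the 10 genes and −0.05 for all genes tested.

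**Figure D2:**
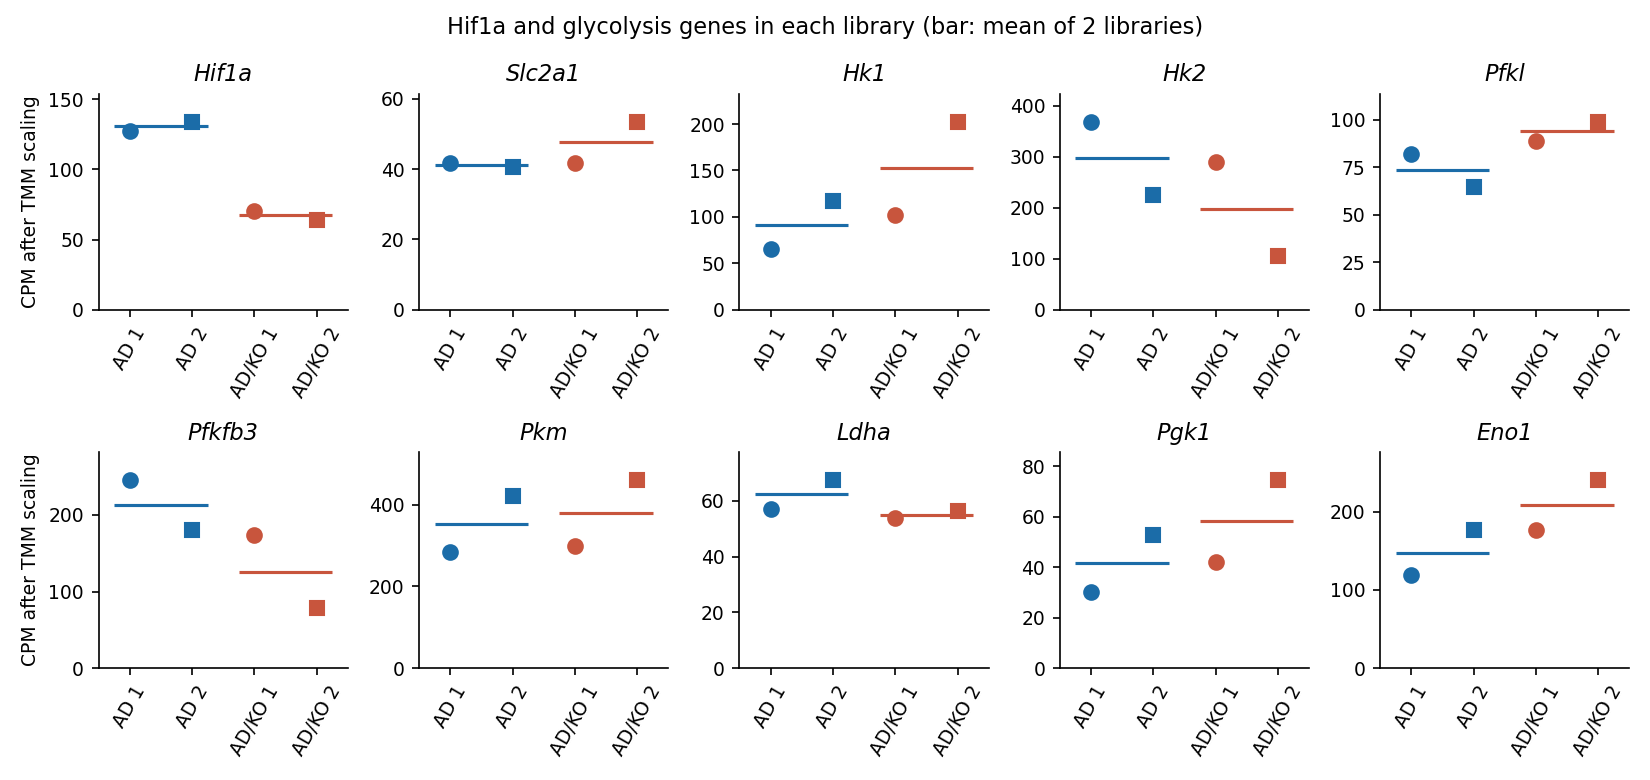
Level of each of the 10 genes in each library, in CPM after TMM scaling on axes that start at 0; points are libraries (circle, replicate 1; square, replicate 2), and bars are the mean of the 2 libraries of a group. Hif1a alone has both AD/KO libraries near 67 CPM, well below both AD libraries near 131 CPM, whereas Hk1, Hk2, Pkm, Pgk1 and Eno1 differ as much between replicates as between groups.

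Hif1a (gene ID 15251, GRCm38.p6 chromosome 12, 73901324 to 73947554, plus strand, protein-coding) had 1752 and 2180 reads in AD and 1356 and 1183 reads in AD/KO. Its level was 127 and 134 CPM in AD and 70.7 and 64.2 CPM in AD/KO. The libraries of each group lay close together and the groups were well apart, beyond counting error: the exact Poisson 95% interval of the lowest AD library began at 121 CPM and that of the highest AD/KO library ended at 74.6 CPM. The group levels were 131 ± 4.83 CPM in AD and 67.4 ± 4.59 CPM in AD/KO (SD, n = 2 each). The log2 fold change was −0.95 (SE 0.28), with an adjusted p of 0.680 (edgeR quasi-likelihood test, Benjamini-Hochberg adjustment). It kept a value between −1.001 and −0.85 when any 1 of the 4 libraries was left out, and was −0.93 with the neuron and astrocyte level as a covariate. With only 4 libraries, a fit with a covariate has little left to measure spread. AD replicate 2 and AD/KO replicate 1, whose neuron and astrocyte marker sums were close (5787 and 5619 CPM), differed in Hif1a by −0.92 on the log2 scale. The same 2 libraries were unlike in microglia markers (11938 and 17610 CPM) and in neutrophil markers (4737 and 505 CPM). The part of these in the Hif1a difference was not tested.

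The comparison depended on what the level was set against. Per 1000 CPM of the summed microglia markers, Hif1a stood at 7.15 and 11.2 in AD and at 4.01 and 12.1 in AD/KO. AD/KO replicate 1 was then the lowest library and AD/KO replicate 2 the highest, so that the groups overlapped. With the libraries scaled to the microglia markers the log2 fold change of Hif1a was −0.19, while the median of all genes tested moved from −0.05 to 0.72. In bulk RNA, fewer cells of a type and less RNA per cell cannot be told apart. Of the 10 genes, 0 had groups that did not overlap on this scale, where 15.1% of all genes did not. The part of the microglial share, or of the lower disease-associated markers, in the Hif1a difference was not tested. A gene on the other strand, Gm15283, covers 5.60% of the Hif1a exon bases and is counted separately in the table.

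**Figure D3:**
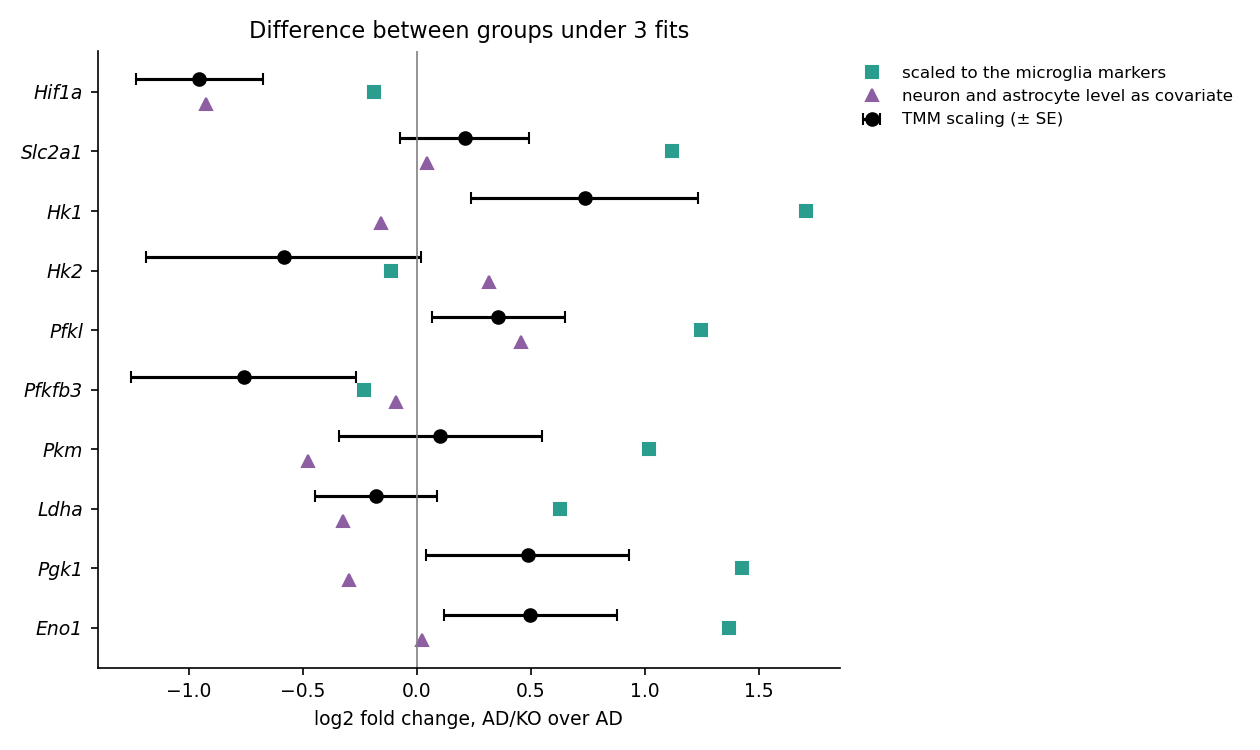
Log2 fold change of AD/KO over AD for each gene: black circles, TMM scaling with bars of ± 1 SE; green squares, libraries scaled to the microglia markers; purple triangles, the neuron and astrocyte level as a covariate. Hif1a is negative in all 3 fits (−0.95, −0.19 and −0.93), and Hk1, Hk2, Pkm, Ldha and Pgk1 change sign in at least 1 of them.

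A promoter window of Hif1a holds the core of the hypoxia response element, as do 43.8% of all promoter windows. It lies inside the gene span, which begins at 73901324, and no window at that beginning was examined. The window runs from 250 bases before to 50 after the start site of the RefSeq transcript and is shown since Hif1a carries the clearest difference (capitals mark ACGTG or GCGTG on either strand, so that CACGT and CACGC are the same motifs on the other strand):

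Hif1a, chr12:73907617-73907916, plus strand, GRCm38.p6: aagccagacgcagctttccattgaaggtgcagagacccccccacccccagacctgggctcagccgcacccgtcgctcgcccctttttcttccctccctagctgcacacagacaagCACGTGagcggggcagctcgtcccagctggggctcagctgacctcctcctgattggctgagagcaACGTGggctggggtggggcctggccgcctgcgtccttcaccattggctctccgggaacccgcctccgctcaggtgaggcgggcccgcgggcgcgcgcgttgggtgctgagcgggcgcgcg

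The window had 3 matches at 2 separate places, and 8.93% of all windows had at least 3 matches. Its GC content was 69.3%, against a median of 52.7% for all windows. The share with at least 3 matches was not counted at like GC content. At the first place ACGTG overlaps itself on both strands as CACGTG, which is also the E-box motif. A match to these letters describes the sequence and does not show binding.

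Other subunits of HIF and the oxygen-sensing genes were compared next. Of 13 genes on this list, all 13 were tested, 0 passed the adjusted threshold, and 8 had higher and 5 lower values in AD/KO, with a median log2 fold change of 0.38 against −0.05 for all genes. Groups did not overlap in 9 of the 13 (42% of all genes), with 7 higher (20.3% of all genes) and 2 lower (21.7%). Egln3, a prolyl hydroxylase that marks HIF subunits for destruction and is itself a well-known HIF target, had the smallest p of the list. It had 96 and 150 reads in AD and 26 and 33 reads in AD/KO, or 6.97 and 9.22 CPM against 1.36 and 1.79 CPM. Both AD/KO libraries were far below both AD libraries, with an AD/KO mean of 19.4% of the AD mean. The log2 fold change was −2.36 (SE 0.50; adjusted p = 0.680, edgeR with Benjamini-Hochberg adjustment). Egln3 kept groups that did not overlap per 1000 CPM of the microglia markers, at 0.392 and 0.772 in AD and 0.0770 and 0.339 in AD/KO, where 8.1% of all genes were lower without overlap.

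Epas1, which encodes the related subunit HIF-2 alpha and is abundant in astrocytes and endothelium, was at 45.2 and 114 CPM in AD and at 136 and 350 CPM in AD/KO. Its order over the libraries was close to that of the neuron and astrocyte markers, with AD replicate 1 lowest and AD/KO replicate 2 highest. The log2 fold change was 1.61 (SE 0.68). Hif3a, the third alpha subunit, was at 2.90 and 5.59 CPM in AD and 10.0 and 12.5 CPM in AD/KO, with both AD/KO libraries higher (log2 fold change 1.40, SE 0.50). Neither passed the adjusted threshold (adjusted p = 0.680 for both, edgeR with Benjamini-Hochberg adjustment). With the neuron and astrocyte level as a covariate the log2 fold change was 0.31 for Epas1 and 0.87 for Hif3a, against −2.74 for Egln3. Without AD/KO replicate 2 it was 0.78 for Epas1. The alpha subunits therefore stood in a different order in the groups. Per kilobase of exon, Hif1a was above Epas1 in AD (22.1 ± 0.820 against 14.2 ± 8.70 CPM per kb, SD, n = 2), with the 2 nearly equal in AD replicate 2 alone (22.7 and 20.4 CPM per kb). In AD/KO the mean of Epas1 was above that of Hif1a (43.5 ± 27.1 against 11.4 ± 0.779 CPM per kb, SD, n = 2).

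**Figure D4:**
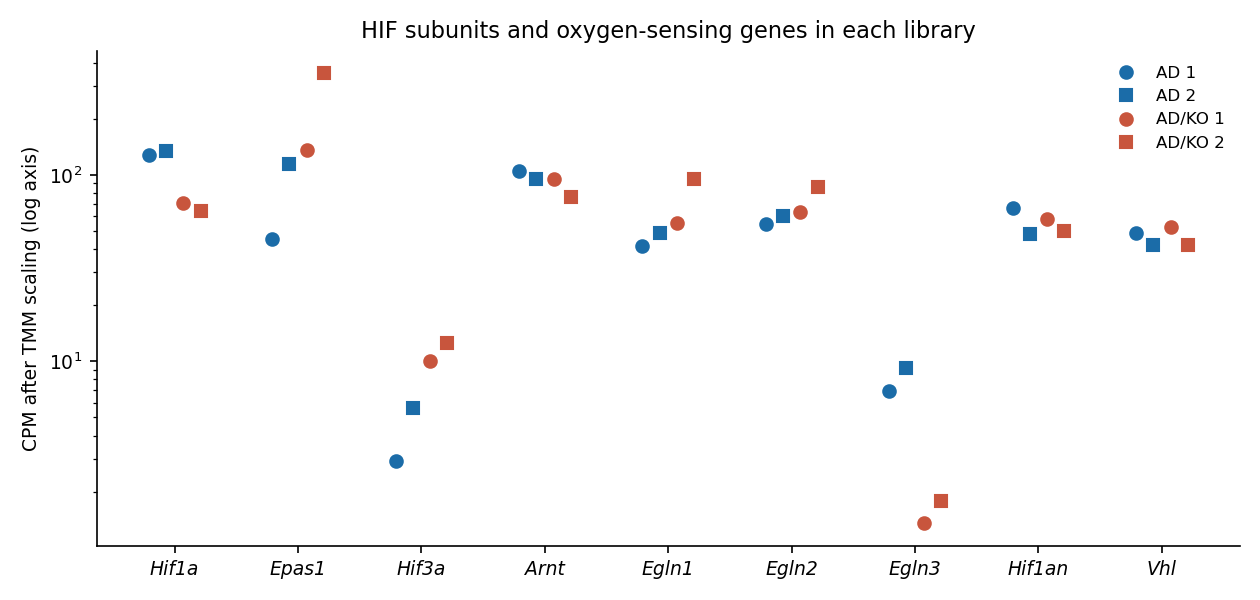
Level of HIF subunits (Hif1a, Epas1, Hif3a, Arnt), prolyl hydroxylases (Egln1 to Egln3), the asparagine hydroxylase Hif1an and the ubiquitin ligase subunit Vhl in each library, in CPM after TMM scaling on a log axis. Blue points are AD and red points AD/KO; both AD/KO libraries lie below both AD libraries for Hif1a and Egln3, and Arnt, Hif1an and Vhl overlap between groups.

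Glucose enters the cell through transporters of the Slc2a family. Slc2a1 (GLUT1; gene ID 20525, chromosome 4, 119108745 to 119137330, plus strand, protein-coding) was at 41.66 and 40.63 CPM in AD and 41.71 and 53.51 CPM in AD/KO. The libraries were level apart from AD/KO replicate 2, and the gap between AD replicate 1 and AD/KO replicate 1 was far inside counting error. This gave a log2 fold change of 0.21 (SE 0.28). Slc2a5, the fructose transporter that marks microglia, was at 354 and 226 CPM in AD and 403 and 97.7 CPM in AD/KO, with the highest and the lowest library both in AD/KO. Slc2a3 (GLUT3), the main neuronal glucose transporter, which neutrophils also carry, was at 21.8 and 66.8 CPM in AD and 22.7 and 45.9 CPM in AD/KO. It was higher in replicate 2 of each group and the groups overlapped. Neither passed the adjusted threshold.

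Hexokinases trap glucose in the cell by phosphorylating it. Hk2 (gene ID 15277, chromosome 6, 82725025 to 82774454, minus strand, protein-coding), the inducible form, was at 369 and 225 CPM in AD and 290 and 106 CPM in AD/KO. AD/KO replicate 1 lay between the AD libraries and AD/KO replicate 2 was the lowest of the 4. Its log2 fold change was −0.58 (SE 0.60), and −0.02 without AD/KO replicate 2. Per 1000 CPM of the microglia markers, Hk2 was nearly level, at 20.7 and 18.9 in AD and 16.5 and 20.1 in AD/KO. Hk3, a form of myeloid cells, was at 146 and 112 CPM in AD and 124 and 41.1 CPM in AD/KO, with the lowest library again AD/KO replicate 2.

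Hk1 (gene ID 15275, chromosome 10, 62268855 to 62379920, minus strand, protein-coding), the constitutive form that predominates in brain, showed the opposite order. It was at 65.8 and 117 CPM in AD and 102 and 203 CPM in AD/KO. AD/KO replicate 2 was the highest library and AD replicate 1 the lowest, as for the neuron and astrocyte markers. Hk1 had a log2 fold change of 0.74 (SE 0.50), 0.17 without AD/KO replicate 2 and −0.16 with the neuron and astrocyte level as a covariate. The share of Hk2 in the summed level of Hk1 and Hk2 per exon length was 88.9% in AD replicate 1 (Wilson 95% interval 88.2% to 89.6%) and 73.3% in AD replicate 2 (72.2% to 74.4%). It was 80.2% in AD/KO replicate 1 (79.4% to 81.0%) and 42.8% in AD/KO replicate 2 (41.5% to 44.2%). Each library thus differed from the others beyond counting error, and AD/KO replicate 1 lay between the AD libraries.

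Phosphofructokinase commits sugar to glycolysis, and Pfkfb3 makes the metabolite that activates it. Pfkl (gene ID 18641, chromosome 10, 77986947 to 78009807, minus strand, protein-coding), the liver-type subunit that is also common in immune cells, was at 81.9 and 64.7 CPM in AD and 88.9 and 98.9 CPM in AD/KO. Both AD/KO libraries were above both AD libraries by a narrow margin, with a log2 fold change of 0.36 (SE 0.29). The muscle-type Pfkm was at 44.0 and 113 CPM in AD and 147 and 350 CPM in AD/KO, and the platelet-type Pfkp at 22.2 and 65.2 CPM and 66.2 and 163 CPM. For both, AD replicate 1 was the lowest library and AD/KO replicate 2 the highest, as for the neuron and astrocyte markers. Between the other two libraries, AD/KO replicate 1 was above AD replicate 2 in Pfkm and nearly equal to it in Pfkp, while their marker sums were close (5619 and 5787 CPM). Pfkfb3 (gene ID 170768, chromosome 2, 11471430 to 11554071, minus strand, protein-coding) was at 245 and 181 CPM in AD and 174 and 78.1 CPM in AD/KO. AD/KO replicate 1 was just below AD replicate 2, with overlapping Poisson 95% intervals (168 to 180 and 174 to 187 CPM), and AD/KO replicate 2 was far lower. Pfkfb3 had a log2 fold change of −0.76 (SE 0.49), −0.28 without AD/KO replicate 2 and −1.40 without AD/KO replicate 1, and −0.09 with the neuron and astrocyte level as a covariate. Per 1000 CPM of the microglia markers Pfkfb3 stood at 13.8 and 15.1 in AD and 9.87 and 14.8 in AD/KO.

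The later steps turn the split sugar into pyruvate and lactate. Pgk1 (gene ID 18655, chromosome X, 106187100 to 106203699, plus strand, protein-coding), which makes the first ATP of the pathway, was at 30.3 and 52.8 CPM in AD and 42.1 and 74.4 CPM in AD/KO. The groups overlapped, and replicate 2 was higher in each. Pgk1 had a log2 fold change of 0.49 (SE 0.45). Eno1 (gene ID 13806, chromosome 4, 150236708 to 150248879, plus strand, protein-coding), the ubiquitous enolase, was at 119 and 176 CPM in AD and 177 and 240 CPM in AD/KO (log2 fold change 0.50, SE 0.38). AD replicate 2 and AD/KO replicate 1 were equal within counting error. Pkm (gene ID 18746, chromosome 9, 59656576 to 59679372, plus strand, protein-coding), which makes pyruvate, was at 284 and 422 CPM in AD and 298 and 460 CPM in AD/KO. Its groups overlapped, and the log2 fold change was 0.10 (SE 0.44). The M1 and M2 forms of Pkm, made by alternative splicing, share 1 count here.

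Ldha (gene ID 16828, chromosome 7, 46842274 to 46855627, plus strand, protein-coding), which turns pyruvate into lactate, varied least of the 10 genes. It was at 57.2 and 67.4 CPM in AD and 53.8 and 56.3 CPM in AD/KO. The highest library was 1.25 times the lowest, against 3.47 times in Hk2. Both AD/KO libraries were below both AD libraries, with Poisson 95% intervals of AD/KO replicate 2 and AD replicate 1 that overlapped (52.9 to 59.8 and 53.3 to 61.3 CPM). The log2 fold change was −0.18 (SE 0.27), and 0.63 with the libraries scaled to the microglia markers. None of the 9 uptake and glycolysis genes passed the threshold, with adjusted p from 0.680 to 0.929 (edgeR quasi-likelihood test, Benjamini-Hochberg adjustment).

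Copies of these genes elsewhere in the genome limited what the counts of 4 of them could show. Counting as a copy any stretch of 100 bases or more with 95% identity or more, Eno1 matched 3 other genes over 85.6% of its longest coding transcript, Pgk1 4 over 68.8%, Pkm 1 over 65.5% and Ldha 5 over 55.0%. No such match was found for Hif1a, Slc2a1, Hk1, Hk2, Pfkl or Pfkfb3 among GENCODE M21 transcripts. The enolase copy Eno1b had 160, 254, 294 and 370 reads in library order, and the copy Gm4735 had 129, 233, 255 and 349, beside 1636, 2869, 3393 and 4422 reads for Eno1. The Ldha copy Gm9247 had 36, 198, 93 and 297 reads. Of the copies of Pgk1, Pgk1-rs7 had 1 to 5 reads, and of Pkm, Gm6560 had 40 to 120. How reads that match several places were counted was not stated, so that the levels of these 4 genes are uncertain, as is that of Gapdh, with 81 such copies and 13.1 to 16.1 CPM (named after its values were seen). Pkm also shares 15.3% of its exon bases with Gm49759 on the same strand.

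Per kilobase of exon, the order of the 10 genes in AD was led by Pkm (70.6 ± 19.5 CPM per kb, SD, n = 2) and Hk2 (49.7 ± 17.0). Pfkfb3 (28.2 ± 6.05), Eno1 (27.4 ± 7.57) and Hif1a (22.1 ± 0.820) followed, then Ldha (18.8 ± 2.19) and Pgk1 (18.5 ± 7.08). Slc2a1 (11.7 ± 0.208), Pfkl (10.98 ± 1.82) and Hk1 (10.7 ± 4.25) were the lowest. Neighbours within each of these last 3 sets did not differ beyond their spread. In AD/KO, Pkm (75.8 ± 22.8) still led, Eno1 (38.7 ± 8.29) stood beside Hk2 (33.2 ± 21.8), and Hif1a (11.4 ± 0.779) was the lowest of the 10, just below Slc2a1 (13.6 ± 2.38) within the spread of the latter. The order depended on the length used. Per kilobase of the longest transcript, Pkm led again in AD (145 ± 40.1), Eno1 (72.8 ± 20.1) came above Hk2 (53.9 ± 18.4), and Ldha (34.3 ± 3.99) came above Hif1a (27.6 ± 1.02). In AD/KO on that length Eno1 (102.8 ± 22.005) was well above Hk2 (35.9 ± 23.6), and Hif1a (14.3 ± 0.972) was again the lowest of the 10, beside Slc2a1 (14.6 ± 2.56).

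The enzymes with a second form showed how the mixture of isozymes differed between libraries. Eno2 (neuronal enolase) was at 19.0 and 74.5 CPM in AD and 76.3 and 197 CPM in AD/KO. The share of Eno1 in the pair per exon length was 84.5% (Wilson 95% interval 82.7% to 86.2%) and 67.4% (65.9% to 68.9%) in AD, and 67.0% (65.6% to 68.3%) and 51.6% (50.5% to 52.7%) in AD/KO. AD replicate 2 and AD/KO replicate 1 had the same share within counting error. Aldoc (the aldolase of astrocytes) was at 146 and 390 CPM in AD and 510 and 1161 CPM in AD/KO. Ldhb, the form that favours use of lactate, was at 124 and 137 CPM in AD and 164 and 212 CPM in AD/KO. The share of Ldha in its pair was 17.9% (16.7% to 19.2%) and 18.9% (17.8% to 20.1%) in AD, and 13.5% (12.7% to 14.3%) and 11.2% (10.5% to 11.9%) in AD/KO. This was the pair in which the AD libraries agreed within counting error and both AD/KO libraries were lower. With 2 libraries against 2, no exact test of such a share can reach 0.05.

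**Figure D5:**
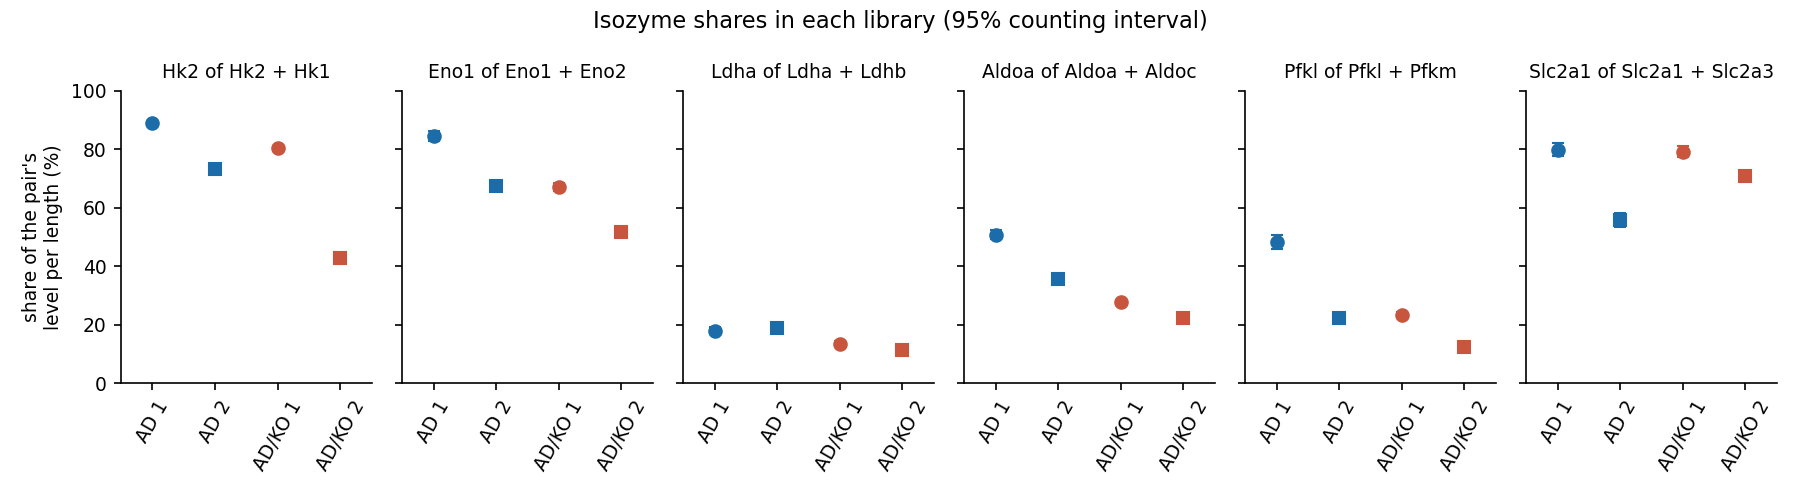
Share of the first-named gene in the level per exon length of each isozyme pair, in percent, in each library; bars are Wilson 95% intervals for counting error, small against the points. For Hk2, Eno1, Aldoa and Pfkl the share is lowest in AD/KO replicate 2, and for Ldha both AD/KO libraries (13.5% and 11.2%) lie below both AD libraries (17.9% and 18.9%).

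Of the 13 genes listed as isozymes or paralogs, 12 were tested; 7 had higher and 5 lower values in AD/KO, with a median log2 fold change of 0.37, and 5 were higher without overlap and 0 lower (20.3% and 21.7% of all genes). These 5 were Pfkm (log2 fold change 1.66, SE 0.67), Aldoc (1.64, SE 0.72), Eno2 (1.55, SE 0.81), Pfkp (1.39, SE 0.70) and Ldhb (0.53, SE 0.32). None passed the adjusted threshold with all 4 libraries and the group as the only term (adjusted p = 0.680 for each, edgeR with Benjamini-Hochberg adjustment). The sizes rested on single libraries. Without AD/KO replicate 2 the log2 fold change was 0.91 for Pfkm, 0.94 for Aldoc, 0.72 for Eno2, 0.61 for Pfkp and 0.34 for Ldhb. Without AD replicate 2, which leaves 1 AD library, it was 2.55 for Pfkm, 2.57 for Aldoc, 2.42 for Pfkp and 2.90 for Eno2. The 12 neuron markers had a median log2 fold change of 1.47 and the 10 astrocyte markers 1.41, with all 22 higher in AD/KO. With the neuron and astrocyte level as a covariate, the log2 fold change was 0.43 for Pfkm, 0.43 for Aldoc, 0.09 for Eno2, 0.07 for Pfkp and 0.27 for Ldhb.

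Other steps of the pathway had values on both sides of 0. Of 21 further glycolysis, lactate transport and pyruvate entry genes, all were tested, 13 had higher and 8 lower values, and the median log2 fold change was 0.24. None reached an unadjusted p of 0.05 by edgeR. The 3 with the smallest p were Pdha1 and Dlat, subunits of the pyruvate dehydrogenase complex that feeds mitochondria, and Pdk4, a kinase that switches that complex off. Pdha1 was at 33.8 and 44.7 CPM in AD and 48.0 and 82.6 CPM in AD/KO, and Dlat at 29.5 and 29.5 CPM and at 36.5 and 49.1 CPM. For both, each AD/KO library was above both AD libraries (20.3% of all genes). Over the 21 genes, 3 were higher and 4 lower without overlap (20.3% and 21.7% of all genes). The 4 lower genes were Slc16a3, at 49.2% of its AD level, Slc16a7, Pfkfb4 and Pdk3. Pdk4 was at 3.05 and 7.31 CPM in AD and 6.62 and 20.2 CPM in AD/KO, and overlapped. The log2 fold change was 0.73 for Pdha1, 0.54 for Dlat and 1.37 for Pdk4. With the neuron and astrocyte level as a covariate it was 0.13, 0.32 and −0.086.

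HIF targets outside glycolysis were likewise mixed. Of 20 genes, 19 were tested; 11 had higher and 8 lower values, with a median log2 fold change of 0.11, and groups did not overlap in 4 higher and 5 lower genes, a share near that of all genes (42%). Ddit4, a stress-induced inhibitor of mTOR, was at 9.65 and 17.7 CPM in AD and 25.6 and 33.4 CPM in AD/KO (log2 fold change 1.11, SE 0.42). P4ha2, a collagen prolyl hydroxylase, was at 1.02 and 3.38 CPM and at 5.47 and 11.99 CPM. Pgf, a growth factor of the VEGF family, had 2 and 9 reads in AD and 21 and 45 in AD/KO. The log2 fold change was 1.98 for P4ha2 and 2.29 for Pgf. With the neuron and astrocyte level as a covariate it was 0.56 for Ddit4, 0.76 for P4ha2 and 1.06 for Pgf. Among 15 genes of signalling upstream of Hif1a, all tested, 6 had higher and 9 lower values, with a median of −0.16. Stat3, a transcription factor of cytokine signalling, was at 147 and 133 CPM in AD and 115 and 83.1 CPM in AD/KO, and Rps6kb1, the S6 kinase downstream of mTOR, at 87.5 and 65.3 CPM and 59.3 and 42.7 CPM. Tsc2, which restrains mTOR, was at 99.3 and 127 CPM in AD and 136 and 213 CPM in AD/KO. The log2 fold change was −0.50 for Stat3, −0.58 for Rps6kb1 and 0.63 for Tsc2. With the same covariate it was −0.22 for Stat3, −0.16 for Rps6kb1 and 0.12 for Tsc2. These 3 were named for the smallest p of their list, and their groups did not overlap, where 42% of all genes did not. On the whole list, 3 genes were higher and 5 lower without overlap (20.3% and 21.7% of all genes). None of the list passed the adjusted threshold.

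Among 89 other tested genes of these lists, those whose pattern over the 4 libraries lay closest to Hif1a were Ero1a, Stat3 and Eif4ebp1. Likeness was the root mean square distance of log2(CPM + 1) after centring each gene, at 0.22, 0.26 and 0.27. Ero1a, an oxidase of protein folding, was at 19.5 and 29.3 CPM in AD and 14.02 and 14.8 CPM in AD/KO. Eif4ebp1, a repressor of translation under mTOR, was at 10.5 and 9.40 CPM in AD and 8.18 and 5.43 CPM in AD/KO.

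The 10 genes differed in how they varied within a group. In 7 of them replicate 2 departed from replicate 1 in the same direction in both groups. Hk1, Pkm, Ldha, Pgk1 and Eno1 were higher in replicate 2 of each group, and Hk2 and Pfkfb3 lower. Replicate 2 was also the library of each group with fewer microglia markers and more neuron and astrocyte markers. In Hif1a, Slc2a1 and Pfkl the direction was opposite in the 2 groups. The difference between AD replicate 2 and AD/KO replicate 1, the libraries closest in neuron and astrocyte markers, was −0.92 on the log2 scale for Hif1a. It was −0.50 for Pkm, −0.33 for Ldha, −0.33 for Pgk1, −0.20 for Hk1 and −0.06 for Pfkfb3, and 0.46 for Pfkl, 0.36 for Hk2, 0.04 for Slc2a1 and 0.00 for Eno1. These 2 libraries also differed in microglia markers (11938 and 17610 CPM) and neutrophil markers (4737 and 505 CPM), whose part was not tested.

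All 10 genes had at least 1 promoter window in the RefSeq table for GRCm38.p6 (16 windows of 300 bases). The hypoxia response core, ACGTG or GCGTG on either strand, was found in 14 of the 16 windows, where 43.8% of all 32851 windows hold it. Each of the 10 genes had it in at least 1 window. Some of them have several windows, and the share of all genes with it was not counted. The windows of these genes were GC-rich, with a median GC content of 65.2% against 52.7% for all windows. Of windows with at least 60% GC, 12 of the 13 windows of these genes and 69.2% of all windows held a match. The Eno1 windows that start at 150236947 and 150236974 overlap and hold the same CACGC sites, which are counted in both. Pfkfb3 was the enzyme gene with the lowest log2 fold change, and Ldha varied least of the 10 and had the window with the most matches. Hk1, Pfkfb3 and Ldha have 2 windows each, of which the one with more matches was taken. In all of these genes the window taken lies inside the gene span. Shown here are windows of the 2 hexokinases, whose levels ran in opposite order over the libraries, and of Pfkfb3 and Ldha (capitals as above):

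Hk2, chr6:82774405-82774704, minus strand, GRCm38.p6: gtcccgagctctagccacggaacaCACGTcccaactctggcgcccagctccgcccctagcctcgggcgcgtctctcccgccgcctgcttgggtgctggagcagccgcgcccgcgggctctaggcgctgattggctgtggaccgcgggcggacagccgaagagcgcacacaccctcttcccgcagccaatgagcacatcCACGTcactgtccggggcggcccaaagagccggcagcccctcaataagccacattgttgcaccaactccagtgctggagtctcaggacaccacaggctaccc
Hk1, chr10:62340372-62340671, minus strand, GRCm38.p6: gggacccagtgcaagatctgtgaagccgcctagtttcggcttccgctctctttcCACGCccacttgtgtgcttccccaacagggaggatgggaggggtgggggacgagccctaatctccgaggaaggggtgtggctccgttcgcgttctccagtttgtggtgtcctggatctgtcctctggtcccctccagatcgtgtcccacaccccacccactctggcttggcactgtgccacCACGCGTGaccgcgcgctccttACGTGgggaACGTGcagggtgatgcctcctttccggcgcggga
Pfkfb3, chr2:11502041-11502340, minus strand, GRCm38.p6: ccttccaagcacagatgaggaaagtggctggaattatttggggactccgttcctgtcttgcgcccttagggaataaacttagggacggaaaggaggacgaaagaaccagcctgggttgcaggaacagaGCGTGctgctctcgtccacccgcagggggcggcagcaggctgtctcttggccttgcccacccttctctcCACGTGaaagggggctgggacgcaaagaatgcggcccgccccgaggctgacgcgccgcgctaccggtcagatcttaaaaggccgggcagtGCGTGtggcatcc
Ldha, chr7:46845554-46845853, plus strand, GRCm38.p6: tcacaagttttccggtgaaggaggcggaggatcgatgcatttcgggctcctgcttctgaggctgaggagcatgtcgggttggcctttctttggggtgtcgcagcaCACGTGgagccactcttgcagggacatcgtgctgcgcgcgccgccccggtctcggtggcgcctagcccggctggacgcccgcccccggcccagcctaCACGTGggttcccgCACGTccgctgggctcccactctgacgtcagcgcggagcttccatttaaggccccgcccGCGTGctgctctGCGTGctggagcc

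Hk2, whose only window begins outside the gene span, had 2 matches, both ACGTG. Hk1 had 5 in this window and 0 in its other window. Pfkfb3 had 4, of which 2 are the 2 strands of 1 CACGTG, and 1 in its other window. Ldha had 7 at 5 separate places, including CACGTG at 2 places, and 2 in its other window. At least 6 matches were held by 0.694% of all windows, whose median GC content was 52.7%, against 67.3% in the Ldha window shown. That window was picked for holding the most matches, so that this share does not measure how unusual it is. The log2 fold changes beside these counts were −0.18 for Ldha, 0.74 for Hk1, −0.76 for Pfkfb3 and −0.58 for Hk2. Whether the number of matches is related to the difference between groups was not tested.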

How the data were processed

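Bulk RNA-seq of CD11b+ microglia gave 1 table per library, in which the authors deposited raw counts of reads for each gene symbol. The submitters' processing notes name HISAT2, SAMtools, featureCounts (Subread), DESeq2 1.30.0 and mm10. Strand use, multi-mapping and annotation are not given in the sources used here. Every table had 11 lines that held no count, which were left out. Counts were kept by filterByExpr (minimum count 10, minimum total 15), scaled by TMM and tested with edgeR 4.0.16 (R 4.3.3) by its quasi-likelihood F-test, with the group as the only term over the 4 libraries. The Benjamini-Hochberg threshold was 0.05 over 21439 genes. The SE is the absolute log2 fold change divided by the square root of F. The procedure was tested on simulated data. Alternatives were DESeq2 1.42.0, other scalings and filters, a covariate, a replicate block and leaving out each library. Exon lengths came from GENCODE M21, coordinates and promoters from RefSeq GRCm38.p6 (all 49993 symbols matched), and copies from BLAST 2.17.0. No molecular identifiers are described, so that intervals cover counting error only. The 10 genes and all lists were chosen with earlier results of these data known. Named from each list, by rule, were genes past the threshold or else the 3 with the smallest p, besides the 10 genes, 8 isozymes, the 3 nearest to Hif1a in pattern and copies found by BLAST.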

Additional observations from a re-analysis of the deposited data

How the results depend on the processing

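Of 110 values of the 10 genes under alternatives, 99 kept their direction and their side of the threshold, 8 changed direction and 3 newly passed. With the neuron and astrocyte level as a covariate, the log2 fold change was −0.16 for Hk1, 0.32 for Hk2, −0.30 for Pgk1 and −0.48 for Pkm. Scaled to the microglia markers, Ldha was at 0.63. With 1 library left out, Ldha ran from −0.30 to 0.0081 and Pkm from −0.23 to 0.48, so that the sign of both rested on single libraries. The cause was not tested. The number of all genes past the threshold, 0 by edgeR (1072 at an unadjusted p under 0.05), was 91 with DESeq2 as the test and from 0 to 524 with 1 library left out, the highest without AD replicate 2 and 48 without AD replicate 1. In these fits a lone library is assumed to vary like the other group. The median log2 fold change of the 10 genes, 0.16, was 1.07 with scaling to the microglia markers (all genes 0.72), −0.13 with the covariate, and from −0.023 to 0.43 with 1 library left out.

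The groups share replicate numbers 1 and 2, and no label says that a number marks a shared litter or day. The deviations of same-numbered libraries correlated at 0.74 over genes. With 2 libraries per group the deviations of a group mirror each other. The opposite pairing gives the same size with the other sign, so that this value does not show that the numbers mark pairs. With the replicate block in the edgeR fit, 4333 genes (20.2%) and 3 of the 10 passed, Hif1a (log2 fold change −0.95, adjusted p = 0.0101), Hk1 (0.71, 0.0300) and Pfkfb3 (−0.85, 0.0390). Of the other named genes, 13 passed in that edgeR fit, with an adjusted p of 0.00472 for Egln3, 0.00247 for Epas1, 0.0164 for Hif3a, 0.00235 for Pfkm, 0.00267 for Pfkp and Eno2 and 0.00418 for Aldoc, and from 0.00760 to 0.0454 for Ddit4, P4ha2, Pgf, Pdha1, Pdk4 and Rps6kb1. The block takes a further term from a fit of only 4 libraries, which leaves little to measure spread. Egln3, Epas1, Hif3a, Ddit4, P4ha2, Pgf, Pdha1, Pdk4 and Rps6kb1 were named for their small p in these same libraries. Their passing therefore adds no separate support. The same holds for Hif1a, Hk1, Pfkfb3, Pfkm, Pfkp, Eno2 and Aldoc. Their calls come from the same 4 libraries, and they were listed with earlier results of these data known. Whether replicate 2 against replicate 1, which also differ in neuron and astrocyte markers, accounts for these calls was not tested.

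Of 242 values of the 22 other named genes, 215 kept direction and side, 13 changed direction and 14 newly passed. Eno2 passed without AD replicate 2, and the other 13 are the calls under the block given above. Scaled to the microglia markers, Eif4ebp1 was at 0.11, Ero1a at 0.011, Rps6kb1 at 0.14, Slc2a3 at 0.55, Slc2a5 at 0.089 and Stat3 at 0.20. With the covariate, Hk3 was at 0.10, Pdk4 at −0.086 and Slc2a5 at 0.77. With 1 library left out, Slc2a3 ran from −0.98 to 0.71 and Slc2a5 from −1.52 to 0.48. With the longest transcript in place of all exons as the length, 8 of 12 isozyme shares stayed within 1 SD. Those of Aldoa were then 60.4% in AD and 40.3% in AD/KO (43.1% and 24.9% before), and those of Ldha 25.5% and 17.6% (18.4% and 12.3% before), with the order of the groups as before. Depth limits genes such as Pgf, with 2 reads in 1 AD library.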
